A study of Mus musculus with 6 samples.

Results

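Mx1, Mx2, Rsad2, Cmpk2, Isg20, Samhd1, Apobec3, Ifi44, Xaf1 and Rtp4 are 10 genes known for direct antiviral action or for strong induction by interferon. They were selected by name, with their difference between miPEP31 KO and wild-type (WT) libraries already known, so the comparison of their levels between the genotypes is a description and carries no test. Each symbol matched 1 row of a table of 52856 rows, and all 10 were among the 14387 genes that passed the filter on low counts. Ifi44 and Rtp4, with under 10 counts in every WT library, passed it only through their KO libraries. The libraries were made from splenic CD4+ T cells, 3 from miPEP31-/- and 3 from WT mice, all of the C57BL/6 strain and 8 weeks old. Cells of both genotypes were stimulated through CD3 and CD28 with antibodies for 48 hours. miPEP31 is a small peptide translated from the precursor RNA of the microRNA miR-31. The labels do not say how the deletion was made, in which cells it acts, or whether each library came from 1 mouse, so the spread between libraries may be partly technical.

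Type I interferons bind the receptor made of Ifnar1 and Ifnar2, which activates the kinases Jak1 and Tyk2 and, through them, a transcription factor complex that includes Stat2 and Irf9. That complex binds interferon-stimulated response elements, whose core is a repeat of the letters GAAA, and Irf7 amplifies the response. The proteins made in answer block viruses at different steps: Mx proteins are dynamin-like GTPases that trap viral nucleocapsids, viperin (Rsad2) makes a nucleotide that ends viral RNA chains, Isg20 degrades RNA, Samhd1 hydrolyses deoxynucleotides, and Apobec3 deaminates cytidines in retroviral DNA. T cells are among the cells known to keep Samhd1 and Apobec3 transcripts without infection.

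RefSeq promoter windows on GRCm38.p6 were at hand for 7 of the 10 genes. Printed here are the 150 bases before and the first 30 bases after the start of transcription of 5 genes, on the strand of the gene, because they set 3 genes that were nearly silent in WT and carried a GAAA repeat beside 1 such gene without it and 1 gene that was abundant in WT and carried it. Capitals mark GAAA repeats, or TTTC repeats where the match lies on the opposite strand. The positions are Rsad2 at chr12:26456423-26456602 on the minus strand, Cmpk2 at chr12:26469065-26469244 on the plus strand, Ifi44 at chr3:151749881-151750060 on the minus strand, Xaf1 at chr11:72301479-72301658 on the plus strand and Apobec3 at chr15:79892258-79892437 on the plus strand.
Rsad2: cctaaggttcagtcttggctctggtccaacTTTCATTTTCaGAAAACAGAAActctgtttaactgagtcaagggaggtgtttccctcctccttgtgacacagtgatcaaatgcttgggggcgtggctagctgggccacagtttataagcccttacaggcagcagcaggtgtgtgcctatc
Cmpk2: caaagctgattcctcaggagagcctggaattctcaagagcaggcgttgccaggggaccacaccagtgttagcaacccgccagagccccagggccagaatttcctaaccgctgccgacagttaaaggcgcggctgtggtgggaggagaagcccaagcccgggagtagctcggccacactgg
Ifi44: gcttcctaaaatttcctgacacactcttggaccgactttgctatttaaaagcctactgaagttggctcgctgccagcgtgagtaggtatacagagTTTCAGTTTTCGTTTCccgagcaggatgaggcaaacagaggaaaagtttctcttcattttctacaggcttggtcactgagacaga
Xaf1: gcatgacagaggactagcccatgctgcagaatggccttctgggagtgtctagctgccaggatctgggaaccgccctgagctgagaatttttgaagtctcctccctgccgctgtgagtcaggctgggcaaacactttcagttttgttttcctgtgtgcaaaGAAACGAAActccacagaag
Apobec3: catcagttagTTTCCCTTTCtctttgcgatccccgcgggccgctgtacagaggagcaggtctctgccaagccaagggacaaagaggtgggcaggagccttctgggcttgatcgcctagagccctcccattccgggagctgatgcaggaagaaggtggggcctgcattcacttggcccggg

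The search covered both strands from 250 bases before to 50 bases after each start, with 3 spacings of the repeat. The core with a gap of 2 bases, GAAANNGAAA, was found in Rsad2 and Apobec3 and in 3.44% of 32851 promoter windows. The spacings of 1 base (GAAANGAAA) and 3 bases (GAAANNNGAAA) were added after the sequences had been seen. The first was found in Ifi44 and Xaf1 and in 3.17% of windows, and the second in Ifi44 and Rsad2 and in 2.75%. Isg20 and Apobec3 had more than 1 window each, so the 7 genes had 10 windows. Any of the 3 spacings was present in 4 of these 10 windows, each of a different gene, and in 8.61% of all windows. The Apobec3 window that is not printed held none of them. In Rsad2 a match began 120 bases before the start and another 109 bases before it, separated by 1 base, whereas the matches of Ifi44, at 55 and 48 bases before the start, overlap each other. The match of Xaf1 lies just inside the transcript, 11 bases after the start. A further motif, the gamma-activated sequence TTCNNNGAA known from interferon gamma signalling, was found in Isg20 and Samhd1 and in 8.3% of windows. Cmpk2 held neither motif in its window, and no more follows from that than the absence of these letters there.

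Library totals lay between 22865487 and 26295776 counts. Mir31, the microRNA gene of the targeted locus, was at 0 counts throughout and therefore gives no check of the genotypes. The label of CD4+ T cells was read against marker genes: Cd4 had 295, 310 and 300 CPM (counts scaled to library size) in KO libraries and 497, 449 and 421 CPM in WT libraries, and the summed T cell markers lay at 2042 to 2154 CPM in KO and 2131 to 2262 CPM in WT. Within that list of 8 markers, Cd3d, Cd3e, Cd3g, Cd4 and Trac, 5 genes, were called lower, while Cd5 was called higher, with 621 CPM in KO and 374 CPM in WT. Of all genes tested, 25.1% were called higher and 22.2% lower in KO (edgeR quasi-likelihood test, Benjamini-Hochberg adjusted p under 0.05), and in 59.0% the libraries of the genotypes did not overlap. By the same threshold 9 of the 10 genes were called higher and 1, Samhd1, lower, and all 10 did not overlap. Because the genes had been selected with this contrast known, nothing is read from those counts. The median log2 fold change was 5.86 over the 10 genes and 0.01 over all genes tested.

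**Figure D1:**
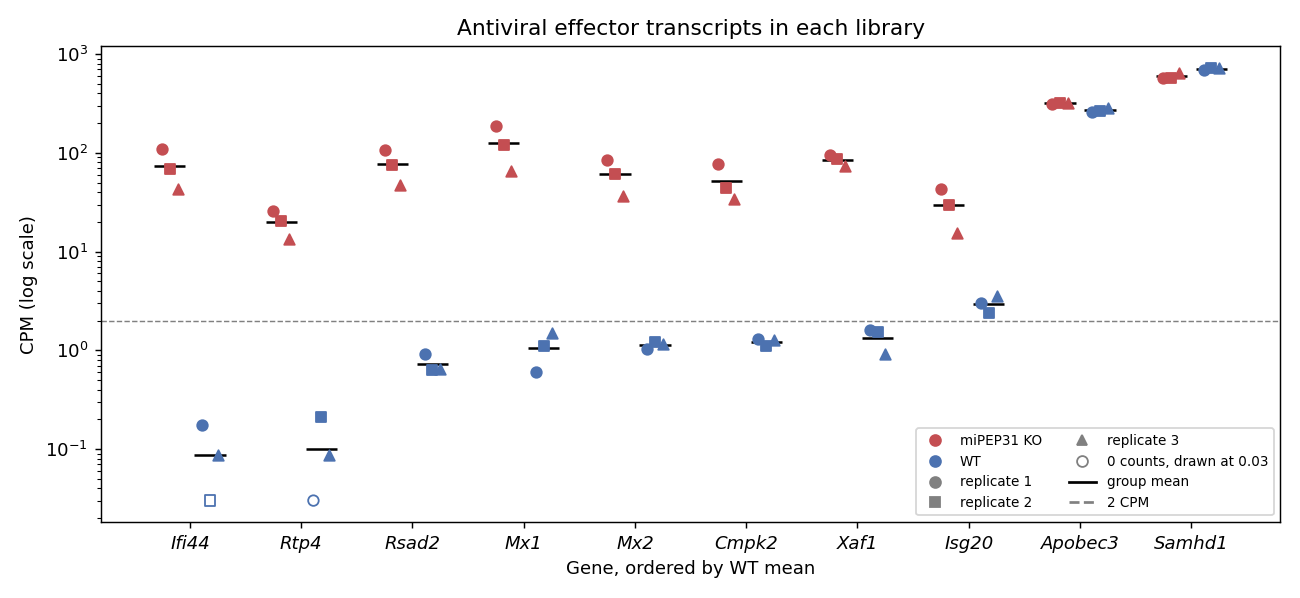
Level of each gene in each library in CPM on a log scale, with miPEP31 KO left of WT in red and blue, 1 mark shape for each replicate and a bar for the mean of a group. Counts of 0 are open marks drawn at 0.03, and the dashed line at 2 CPM divides 7 genes nearly silent in WT from Isg20, Apobec3 and Samhd1, of which the last is lower in KO.

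A WT mean under 2 CPM was taken as nearly silent, which held for Ifi44, Rtp4, Rsad2, Mx1, Mx2, Cmpk2 and Xaf1. Just inside that line lay Xaf1 with a WT mean of 1.34 CPM, and just outside it Isg20 with 2.97 CPM. The remaining 2 genes stood far above it, Apobec3 at 271 CPM and Samhd1 at 713 CPM. At a line of 1 CPM only 3 genes count as nearly silent, since Mx1, Mx2, Cmpk2 and Xaf1 lie between these lines, and at 5 CPM 8 do. In bulk RNA, fewer cells expressing a gene and less of its RNA per cell cannot be told apart, and this holds for every level given here.

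The Mx genes are the dynamin-like GTPases of the group. Mx1 (ENSMUSG00000000386, chr16:97447035-97462907, minus strand, GENCODE M21 on GRCm38) had 189, 120 and 65.5 CPM in KO replicates 1, 2 and 3, against 0.606, 1.10 and 1.48 CPM in WT replicates 1, 2 and 3. The lowest KO library was thus far above the highest WT library, while within KO replicate 1 held 2.88 times the level of replicate 3. The means were 125 ± 61.7 CPM in KO and 1.06 ± 0.438 CPM in WT (SD, n = 3 each), a log2 fold change of 6.87 (SE 0.50). Mx2 (ENSMUSG00000023341, chr16:97535308-97560900, plus strand) had 85.5, 61.5 and 36.7 CPM in KO and 1.04, 1.22 and 1.17 CPM in WT. Its KO libraries stood in the same order as those of Mx1, and the WT libraries were nearly level. The log2 fold change of Mx2 was 5.73 (SE 0.36).

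Both Mx genes are special in laboratory strains. RefSeq, on the C57BL/6J assembly, lists Mx1 and Mx2 as transcribed pseudogenes, and GENCODE M21 lists Mx1 as protein-coding and Mx2 as a polymorphic pseudogene. The mice here were C57BL/6, so these counts measure transcripts and do not show that a working Mx protein was made. The starts of Mx1 and Mx2 lie 72.4 kb apart on chromosome 16, pointing away from each other, with 1 other protein-coding gene, Fam3b, between them. Per length (TPM, transcript levels corrected for merged exon length and library size), Mx1 had 2.11, 1.87 and 1.70 times the level of Mx2 in the KO libraries and 0.557, 0.856 and 1.20 times in the WT libraries. The WT ratios rest on few reads, 14, 26 and 34 counts of Mx1.

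Rsad2 and Cmpk2 are neighbours. Rsad2 (ENSMUSG00000020641, chr12:26442746-26456452, minus strand) encodes viperin, a radical SAM enzyme that turns CTP into a chain-terminating nucleotide. It had 107, 75.9 and 47.3 CPM in KO and 0.909, 0.633 and 0.652 CPM in WT. No KO library came near the WT range. The means were 76.8 ± 30.1 CPM in KO and 0.731 ± 0.154 CPM in WT (SD, n = 3 each), a log2 fold change of 6.71 (SE 0.39). Cmpk2 (ENSMUSG00000020638, chr12:26469204-26479837, plus strand) encodes a mitochondrial kinase that phosphorylates pyrimidine nucleotides such as CMP. It had 77.2, 44.2 and 34.2 CPM in KO, against 1.30, 1.10 and 1.26 CPM in WT, with KO replicate 1 well above the other 2. Its log2 fold change was 5.40 (SE 0.36).

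The starts of Rsad2 and Cmpk2 are 12.8 kb apart with 0 protein-coding genes between them, and they too point away from each other. Per length, Rsad2 stood at 1.33, 1.65 and 1.33 times the TPM of Cmpk2 in KO and at 0.672, 0.554 and 0.497 times in WT, so the order of the neighbours turned between the genotypes. The WT ratios rest on few reads, 21, 15 and 15 counts of Rsad2 and 30, 26 and 29 counts of Cmpk2. As the promoter sequences above show, Rsad2 carries the doubled GAAA repeat shortly before its start and Cmpk2 has none in its window. Whether the repeat bears on these ratios was not tested.

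Isg20, Samhd1 and Apobec3 act on nucleic acids or their building blocks and were the genes already expressed in WT. Isg20 (ENSMUSG00000039236, chr7:78913424-78920396, plus strand), an exonuclease that prefers RNA, had 43.3, 29.4 and 15.6 CPM in KO and 3.03, 2.36 and 3.52 CPM in WT. The groups did not overlap, and the KO libraries again spread widely, with replicate 3 lowest. The means were 29.4 ± 13.8 CPM in KO and 2.97 ± 0.582 CPM in WT (SD, n = 3 each), a log2 fold change of 3.31 (SE 0.37).

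Samhd1 (ENSMUSG00000027639, chr2:157097533-157135265, minus strand), a hydrolase of deoxynucleoside triphosphates that starves reverse transcription, was the single gene lower in KO. It had 570, 578 and 642 CPM in KO and 690, 732 and 718 CPM in WT. The highest KO library, replicate 3, was below the lowest WT library, replicate 1. The means were 597 ± 39.6 CPM in KO and 713 ± 21.0 CPM in WT (SD, n = 3 each), a log2 fold change of -0.26 (SE 0.06). With WT replicate 2 or KO replicate 2 left out the value was -0.24 each time and no longer past the threshold.

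Apobec3 (ENSMUSG00000009585, chr15:79891659-79915906, plus strand), a cytidine deaminase that mutates retroviral DNA, had 310, 321 and 320 CPM in KO and 260, 268 and 286 CPM in WT. The KO libraries were close together and all above the WT libraries. The means were 317 ± 6.08 CPM in KO and 271 ± 13.6 CPM in WT (SD, n = 3 each), a log2 fold change of 0.22 (SE 0.06). Without WT replicate 1, WT replicate 2 or KO replicate 2 it lay between 0.19 and 0.21 and was not past the threshold. Apobec3 overlaps Cbx7 on the opposite strand, and whether reads were counted by strand is not stated in the labels used here. Cbx7 had 1009, 1249 and 1153 counts in KO and 1854, 1757 and 1919 counts in WT, so it was lower in KO while Apobec3 was higher.

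Ifi44, Xaf1 and Rtp4 are interferon-induced genes whose molecular action is less well understood. Ifi44 (ENSMUSG00000028037, chr3:151730922-151749960, minus strand) had 110, 69.2 and 42.7 CPM in KO, against 0.173, 0 and 0.087 CPM in WT. The WT libraries held 4, 0 and 2 counts, and a count of 0 in WT replicate 2 allows up to 0.127 CPM (3 counts, counting error only). Its log2 fold change of 9.66 (SE 0.62) ranked 1 among all genes tested, and without WT replicate 1 it was 10.59. Ifi44 passed the filter on low counts only through its KO libraries, so nothing is read from that rank. Ifi44 was therefore close to absent in WT, and the size of its fold change rests on 6 reads.

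Rtp4 (ENSMUSG00000033355, chr16:23520291-23614222, plus strand), a member of the receptor transporter family, had 25.6, 20.6 and 13.4 CPM in KO and 0, 0.211 and 0.087 CPM in WT. It showed the lowest KO level of the group, and its WT libraries held 0, 5 and 2 counts, where 0 in WT replicate 1 allows up to 0.13 CPM. Its log2 fold change was 7.56 (SE 0.49), and 8.67 without WT replicate 2. Xaf1 (ENSMUSG00000040483, chr11:72301629-72313733, plus strand), a zinc finger protein known as an antagonist of the apoptosis inhibitor Xiap, had 95.5, 86.6 and 73.3 CPM in KO and 1.60, 1.52 and 0.913 CPM in WT. Its KO libraries were the closest together among the 7 nearly silent genes, with means of 85.1 ± 11.2 CPM in KO and 1.34 ± 0.376 CPM in WT (SD, n = 3 each). The log2 fold change of Xaf1 was 5.98 (SE 0.18).

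**Figure D2:**
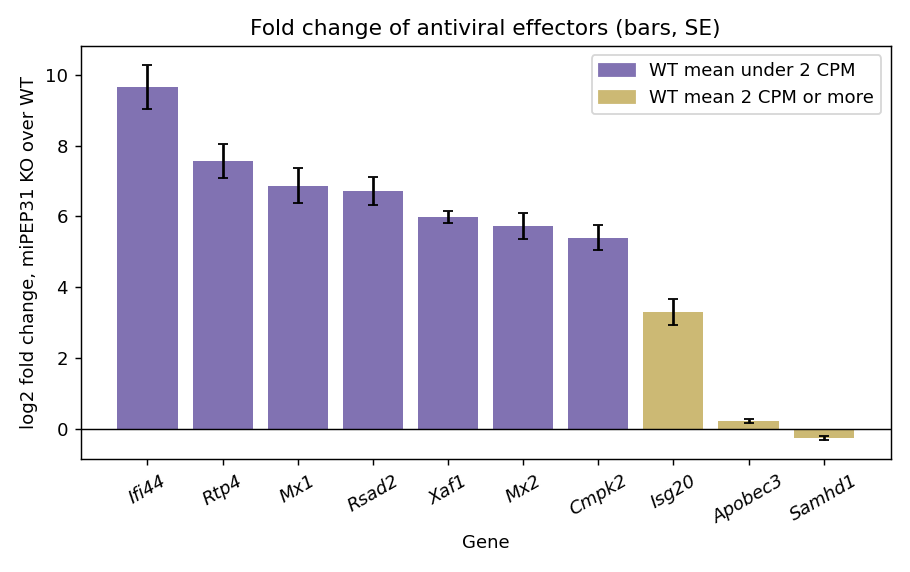
Log2 fold change of each gene, miPEP31 KO over WT, as bars with SE whiskers, coloured by whether the WT mean was under 2 CPM. The genes nearly silent in WT run from 9.66 for Ifi44 to 5.40 for Cmpk2, and the genes already expressed from 3.31 for Isg20 to -0.26 for Samhd1.

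Fold change and level gave different orders. On the per-length scale, Samhd1 was the most abundant transcript of the group in both genotypes, at 206 ± 12.4 TPM in KO and 238 ± 6.91 TPM in WT. In KO it was followed by Apobec3 at 106 ± 3.21 TPM and Mx1 at 104 ± 51.0 TPM, which overlapped. Below them came Xaf1 at 57.3 TPM, Rsad2 at 55.9, Mx2 at 53.5, Isg20 at 49.9, Cmpk2 at 39.2, Ifi44 at 38.1 and Rtp4 at 29.4 TPM, and every neighbour in this order after Samhd1 overlapped the next across libraries. In WT, Apobec3 at 87.8 ± 4.29 TPM and Isg20 at 4.88 ± 0.952 TPM came after Samhd1, each apart from its neighbours. Mx2, Cmpk2, Xaf1, Mx1 and Rsad2 then lay between 0.969 and 0.516 TPM, each overlapping the next, and Rtp4 at 0.142 and Ifi44 at 0.0433 TPM came last.

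Measured as an absolute difference in TPM, KO minus WT, Mx1 gained most with 103 TPM, ahead of Xaf1 with 56.4, Rsad2 with 55.4, Mx2 with 52.5 and Isg20 with 45.0 TPM. Ifi44, with the largest fold change, gained 38.0 TPM, and Samhd1 differed by -32.7 TPM. Ifi44 stood above 70.5% of 13880 tested genes with an annotated length in KO and above 0.231% of them in WT. The corresponding shares for Mx1 were 89.1% in KO and 9.26% in WT, and for Samhd1 95.1% in KO and 96% in WT. Together the 10 transcripts summed to 893, 736 and 587 TPM in KO and 324, 340 and 342 TPM in WT. Samhd1 made up 21.8, 27.5 and 37.4% of that sum in the KO libraries and 71.2, 72 and 70% in the WT libraries. With the longest annotated transcript in place of merged exons, the KO means of Samhd1 and Apobec3 were 365 and 250 TPM. Mx1 then stood at 88.8 TPM, well below Apobec3, and Xaf1 at 78.8, Isg20 at 65.2, Mx2 at 59.5 and Rsad2 at 44.1 TPM, so the closeness of Apobec3 and Mx1 and the order below them depend on the length used.

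**Figure D3:**
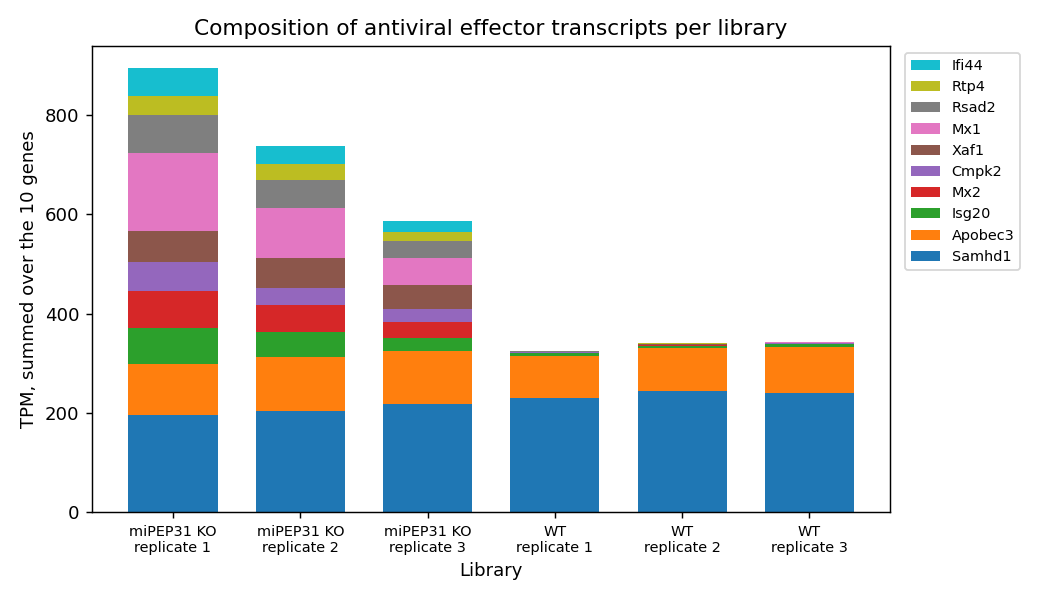
Level per length in TPM, summed over the 10 genes in each library as stacked bars coloured by gene, with the miPEP31 KO libraries left of the WT libraries. The KO bars reach 893, 736 and 587 TPM and hold visible shares of all 10 genes, while the WT bars reach 324, 340 and 342 TPM and are almost wholly Samhd1 and Apobec3.

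The KO libraries did not carry these transcripts at one level. In 8 of the 10 genes, all but Samhd1 and Apobec3, KO replicate 1 was highest and KO replicate 3 lowest, an order seen in 27.7% of all genes tested. The highest KO library was at least 2 times the lowest in 6 genes, Mx1, Isg20, Ifi44, Mx2, Rsad2 and Cmpk2, and in 12.3% of all genes tested. Rtp4 followed with a ratio of 1.90 and Xaf1 with 1.30, while Samhd1 had 1.13 and Apobec3 1.04, and the median over all genes tested was 1.23 in KO. The 7 genes nearly silent in WT summed to 523, 374 and 236 TPM in the KO libraries and to 4.10, 4.47 and 4.33 TPM in the WT libraries. Those WT sums were nearly level while the KO sums differed by more than 2-fold.

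The regulators upstream did not all spread in this way. The ratio of KO replicate 1 to KO replicate 3 was 1.49 for Irf7, 0.933 for Irf9 and 0.898 for Stat2. It was 0.914 for Ifnar1 and 0.938 for Ifnar2, the receptor chains. In contrast, the interferon genes themselves showed a steep order. Ifnb1, which encodes interferon beta, had 52, 26 and 9 counts in KO and 0, 1 and 0 counts in WT. Ifna2 had 117, 38 and 13 counts in KO and 0 in each WT library, and Ifnl2, a type III interferon, had 141, 95 and 21 counts in KO and 0, 0 and 2 counts in WT. Interferon alpha and lambda genes are near-identical copies of one another, so the split of reads between them is uncertain. Whether the spread of the antiviral transcripts follows that of the interferons was not tested.

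The same split by WT level was applied to 38 other effectors, genes known for antiviral action or for induction by interferon. Their list was written with earlier results known, and the split was made after the values of these genes had been seen. Of these, 9 were nearly silent in WT, and their ratio of KO replicate 1 to replicate 3 had a median of 2.20 and ranged from 0.962 for Oas2 to 7.86 for Ifit3b. The other 29 had a median ratio of 1.28, between 0.468 for Ifitm1 and 2.69 for Ifit2. Ifit3b had no WT count, and its KO libraries held 94, 60 and 12 counts. Like Ifit3, Oas1g and Ch25h, also nearly silent in WT, it passed the filter on low counts only through its KO libraries. Isg20 and Ifit2 show that a wide KO spread also occurred in genes above the 2 CPM line.

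**Figure D4:**
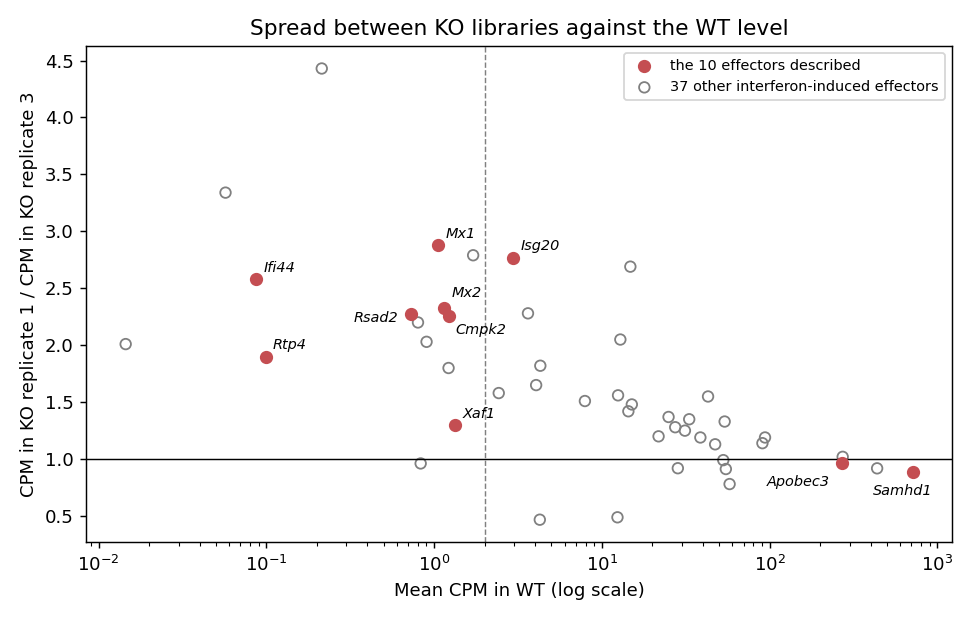
Ratio of the CPM in KO replicate 1 to that in KO replicate 3 against the mean CPM in WT on a log scale. The 10 genes are filled, and 37 other effectors, labelled interferon-induced, are open. Ifit3b, at 0 in WT, is not drawn. Mx1, with 2.88, is the highest of the 10, and Apobec3 and Samhd1 lie slightly under 1 at the right.

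Likeness between profiles was measured as the root mean square difference of log2 CPM over the 6 libraries, each gene centred on its own mean. Among the 10 genes, Mx2 and Cmpk2 were the closest to each other at 0.24, followed by Samhd1 and Apobec3 at 0.25. Samhd1 and Apobec3 changed little and in opposite directions, with log2 fold changes of -0.26 and 0.22, so their small distance is not a shared direction. Mx1 was nearest to Rtp4 at 0.42, Rsad2 to Xaf1 at 0.42 and Xaf1 to Mx2 at 0.41. Ifi44 had no near partner, with 1.21 to Rsad2, and neither had Isg20, with 1.05 to Cmpk2. By this measure the neighbours on chromosome 12, Rsad2 and Cmpk2, were not each other's nearest profile. Within KO, however, their ratios of replicate 1 to replicate 3 were 2.27 and 2.26, against 1.30 for Xaf1. Mx2, on another chromosome, had a similar ratio of 2.33. In KO replicate 2 the neighbours parted, with Rsad2 at 1.65 times the TPM of Cmpk2, against 1.33 times in replicates 1 and 3. The measure includes the difference between the genotypes, known when the genes were selected, and so depends largely on the size of the fold change. The same holds for the likeness to other genes below.

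Of 11650 other genes, those most like the mean profile of the 7 nearly silent genes were Oasl2 at 0.08, Ifi206 at 0.12, Isg15 and Irf7 at 0.23 each and Ifi204 at 0.39. The 7 genes themselves lay 0.18 to 1.24 from that mean. Oasl2 had 112, 79.4 and 51.2 CPM in KO and 0.823, 0.844 and 0.739 CPM in WT, levels near those of Rsad2. Ifi206 and Ifi204 belong to a family of close paralogs, so their counts are uncertain. The mean profile of the 3 genes already expressed joins Isg20 with Samhd1 and Apobec3, which lay 0.43 to 1.11 from it. The genes most like it were Slc16a10, Asns and Clic4 at 0.05 and Lmo4 and Plscr1 at 0.06, and they resemble the average rather than any of the 3.

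Other genes of the pathway were read with the edgeR quasi-likelihood test. Of 31 interferon pathway genes 24 were tested, and 14 were higher in KO, 2 lower and 8 not called, against 25.1% higher and 22.2% lower of all genes tested. Ifna2 and Ifnl2, with 0 and 2 WT counts, are among the 14 and passed the filter only through their KO libraries. With at least 1 CPM required in 3 libraries, which KO libraries alone can meet, 12 were higher. The median log2 fold change of the 24 genes was 0.48. It was 0.42 with that stricter filter, 0.75 without KO replicate 3 and 0.94 without the low-count filter. Irf7 had 159 ± 30.9 CPM in KO and 1.99 ± 0.317 CPM in WT (SD, n = 3 each), and rose by 6.31 (SE 0.19, edgeR adjusted p = 1.24e-06). Of the complex that binds the response element, Irf9 rose by 2.06 (SE 0.07) and Stat2 by 1.87 (SE 0.07). Irf8, another interferon regulatory factor, and Ptpn6, a phosphatase that dampens cytokine signalling, fell by 0.77 and 0.60. Ifnar1 had 94.5 CPM in KO and 87.7 CPM in WT (log2 fold change 0.11, edgeR adjusted p = 0.366). Ifnar2 was called at 0.23 (edgeR adjusted p = 0.0237), but not with a replicate block, without the low-count filter, or when replicate 2 or 3 of either genotype was left out, where it lay between 0.19 and 0.23.

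Among the 38 other effectors, all tested, 32 were higher in KO, 4 lower and 2 not called, with a median log2 fold change of 2.53, while 25.1% of all genes tested were higher and 22.2% lower. Ifit3b, without a WT count, passed the filter only through its KO libraries. So did Ifit3, Oas1g and Ch25h, with WT means of 0.214, 0.0571 and 0.0145 CPM. With at least 1 CPM required in 3 libraries, which KO libraries alone can meet, 29 were higher and the median was 2.39. Those named by smallest p were Trim30a with 3.25 (SE 0.11), Zbp1, a sensor of Z-form nucleic acids, with 3.85 (SE 0.14), the RNA sensor gene Ddx58 with 2.27 (SE 0.09) and Lgals3bp with 2.07 (SE 0.08). The 4 lower genes were the following, of which the Ifitm genes block the entry of viruses at membranes and Serinc5 lowers the infectivity of retroviruses: Ifitm2 at -0.90 (SE 0.11), Ifitm1 at -1.0 (SE 0.31), Serinc5 at -0.50 (SE 0.13) and A230050P20Rik at -0.49 (SE 0.08), so Samhd1 was not the single antiviral gene lower in KO. Ifitm1 lost its call without any 1 of the WT replicates or without KO replicate 2, with values between -1.09 and -0.85.

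Of 20 close relatives of the genes by family, 14 were tested, of which 4 were higher, 3 lower and 7 not called, with a median log2 fold change of -0.06. These shares lie near the 25.1% higher and 22.2% lower of all genes tested. Among the dynamins, relatives of Mx1 and Mx2, Dnm1 had 1.47, 2.12 and 3.14 CPM in KO and 36.6, 35.1 and 23.7 CPM in WT, or -3.83 on the log2 scale (SE 0.27, edgeR adjusted p = 3.78e-05), opposite in sign to the Mx genes. Dnm2 was called at 0.23 and the mitochondrial dynamin-related Opa1 at -0.20, but each lost its call without any 1 of the WT replicates, without KO replicate 2 or 3 and with a replicate block. Dnm2 lost it also with upper-quartile scaling and Opa1 with plain library sizes, and under these alternatives Dnm2 lay between 0.17 and 0.23 and Opa1 between -0.23 and -0.15. Dnm1l at -0.03 and Dnm3 at -0.27 were not called. Cmpk1, the cytosolic relative by function of Cmpk2, rose by 0.35 (SE 0.06). Hddc2, which shares the HD domain of Samhd1, fell by 0.51 (SE 0.10).

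The related deaminase gene Apobec1 was called at 0.55 (edgeR adjusted p = 0.0465), but it lost its call with 5 of the 6 libraries left out in turn, all but WT replicate 3, and with DESeq2 size factors or upper-quartile scaling, between 0.38 and 0.60. The exonuclease relatives of Isg20, Isg20l2 at 0.05 and Aen at -0.19, were not called. Of the apoptosis inhibitors that Xaf1 is linked to, Birc3 rose by 0.36 (SE 0.07), and Xiap at 0.20 (edgeR adjusted p = 0.0524) and Birc2 at -0.16 (edgeR adjusted p = 0.0963) were not called. Xiap passed the threshold without KO replicate 3 or with plain library sizes, between 0.21 and 0.24, and Birc2 without WT replicate 3 or with upper-quartile scaling, between -0.23 and -0.20. Ifi44l, Rtp1, Rtp2, Rtp3 and Apobec4 had 0 counts in all libraries, so of the Ifi44 and Rtp families only Ifi44 and Rtp4 were seen among the genes looked at.

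Samhd1 and Cmpk2 act on nucleotides, and the other enzymes of nucleotide supply were tested beside them. Of 27 tested, 7 were higher in KO, 9 lower and 11 not called, where 25.1% of all genes were higher and 22.2% lower. The median log2 fold change was 0.04, and -0.02 without WT replicate 2 and -0.04 without KO replicate 1. Higher were Nt5c3, a pyrimidine nucleotidase, by 1.00 (SE 0.14), Rrm2b, a ribonucleotide reductase subunit, by 0.77 (SE 0.08), thymidylate synthase (Tyms) by 0.58 (SE 0.12) and Cmpk1. Lower were Nme4 at -0.96 (SE 0.11), Cad, which starts pyrimidine synthesis, at -0.61 (SE 0.12), Uck2 at -0.54 (SE 0.05) and thymidine kinase Tk1 at -0.35 (SE 0.06).

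Markers of other cell types were measured in the same libraries, because some of these cells make interferon or carry interferon-induced transcripts. Of all genes tested, 25.1% were called higher and 22.2% lower, so calls on lists this short carry little weight. Of 5 plasmacytoid dendritic cell markers 3 were tested and 2 of those called higher. The sum over the 5 was 51.1 to 58.4 CPM in KO and 20.8 to 22.0 CPM in WT. That sum came mostly from Ccr9, with 31.2 CPM in KO and 8.65 CPM in WT, and Tcf4, with 20.7 CPM in KO and 11.2 CPM in WT. Siglech, the defining marker, had 3 counts over all 6 libraries. Of 6 other dendritic cell markers 3 were tested and 1 of those called higher. The sum over the 6 was 11.9 to 13.1 CPM in KO and 6.25 to 7.58 CPM in WT, mostly Zbtb46 and Flt3, and Clec9a and Cd209a were at 0.

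The shares over all genes tested, 25.1% higher and 22.2% lower, stand beside the following lists too. Of 5 NK cell markers 3 were tested and 1 of those called higher. The sum over the 5 was 11.1 to 22.0 CPM in KO and 5.70 to 7.92 CPM in WT, mostly Eomes. The other tested markers were Klre1, with 0.368 CPM in KO and 0.572 CPM in WT, and Klrb1c, with 0.303 and 0.625 CPM. Neither was called. Ncr1, not tested, was at 0.195 CPM in KO and 0.115 CPM in WT. Of 2 CD8 T cell markers 1 was called higher, Cd8a, with 12.2 CPM in KO and 3.29 CPM in WT, and their sum was 15.9 to 36.9 CPM in KO and 12.5 to 15.8 CPM in WT. Of 6 B cell markers 3 were called higher, with sums of 57.3 to 104 CPM in KO and 51.0 to 76.5 CPM in WT. Of 8 macrophage and monocyte markers 2 were tested and 1 of those called lower, and Adgre1 and Fcgr1 were at 0. The sum over the 8 was 2.97 to 6.23 CPM in KO and 4.74 to 8.74 CPM in WT. Neutrophil and erythroid markers stayed under 2 CPM in sum. The part of these cell types in the levels of the antiviral genes was not tested.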

How the data were processed

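Per the labels' protocols, Trizol was used for the RNA and a TruSeq kit for the libraries. The authors deposited expected counts (estimated counts per gene, of which 72% of values above 0 were whole numbers), and these deposited counts were rounded before testing. Bowtie 0.12.2 and mm8 appear in the submitters' processing notes, with no role stated. How reads were counted, on which annotation and whether by strand is not given in the sources used. Another deposited table, of 30 genes, holds none of the genes described and was not used. No column of per-sample values was left out.

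Rows were matched by gene ID to GENCODE M21 on GRCm38 for names, coordinates and merged exon lengths (TPM). Genes were filtered with filterByExpr of edgeR 4.0.16 (minimum count 10), scaled by TMM and tested with the quasi-likelihood test (robust, no covariate, all 6 libraries, R 4.3.3) over 14387 genes, with Benjamini-Hochberg adjustment and a threshold of 0.05. CPM use TMM-scaled library sizes. SE is the absolute log2 fold change before shrinkage by a prior count, divided by the root of F, with none where a group had no count. The log2 fold changes given are those after shrinkage. The test was checked on simulated counts with known changes in far fewer genes than were called here. That check therefore does not cover data with as many changes as these. Likeness used log2 CPM with a prior count of 2. Promoters are RefSeq's on GRCm38.p6.

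The 10 genes, the lists, the 2 CPM line and the rules were chosen with earlier results of these data known. Named beyond the 10 genes were up to 4 genes per list and direction by smallest p, the tested relatives, a fixed set of pathway genes regardless of their test, the 2 most abundant genes of each marker list (printed where they carry a sum that differed), and the 5 most alike genes of each profile. Extreme members of the 38 other effectors, Ifna2, Ifnl2, Cd4, Siglech, Ncr1 and Klrb1c were named after their values were seen. A few genes covered by these rules are not reported here. Of the nucleotide list, Pnp had no row. Alternatives were DESeq2 1.42.0, limma 3.58.1 (voom), other scalings and filters, a replicate block and leaving out each library.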

Additional observations from a re-analysis of the deposited data

How the results depend on the processing

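Under 14 alternatives, 135 of 140 log2 fold changes of the 10 genes kept their direction and their side of the threshold, and 0 reversed. The exceptions were Samhd1 without WT replicate 2 or KO replicate 2 and Apobec3 without WT replicate 1, WT replicate 2 or KO replicate 2, so that genes called lower ranged from 0 to 1 and genes called higher from 8 to 9 when 1 library was left out. Fold changes ranged from 9.09 to 10.59 for Ifi44 and from 7.0 to 8.67 for Rtp4, the widest ranges, and from 0.19 to 0.27 for Apobec3 and -0.33 to -0.21 for Samhd1. The count of genes nearly silent in WT, 7 at a line of 2 CPM, was 3 at 1 CPM and 8 at 5 CPM. Relatives called higher numbered 4, but 2 with upper-quartile scaling and 2 to 3 when 1 library was left out. Of 517 values of 37 other single genes, 31 lost their call, 4 gained one and 0 reversed. The order of KO libraries held for 8 genes also with plain library sizes and with DESeq2 size factors.

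No pairing by replicate number was seen: same-numbered KO and WT libraries had correlations of deviations of 0.001, -0.007 and -0.016. Such values cannot show whether libraries shared a day or batch. With a replicate block 5736 genes were called in place of 6806, and the block ended no call among the 10 genes. Low WT counts of Ifi44 (6 reads) and Rtp4 (7 reads) limit the precision of their fold changes, and with 3 libraries per genotype the spread within KO is itself poorly known. The cause of the changed calls was not tested.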
